A study of Mus musculus with 6 samples.

Results

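Steroid hormones are made, inactivated and conjugated by families of enzymes, and 72 genes of these families on the mouse array were described in the uterus late in pregnancy. They are the genes whose symbol in the array's annotation begins with Hsd3b, Hsd11b, Hsd17b, Srd5a, Akr1c, Sult, Cyp11, Cyp17, Cyp19, Cyp21 or Ugt, together with Star, Sts and Tspo. The rule used names and no measured value, but it was chosen with earlier results of these data known. It took 120 of the 45281 probes and 72 of the 28922 gene names on the array. Of the 72 genes, 33 had a probe detected on at least 3 of the 6 arrays and are called measured below, and 39 did not. Not every gene so named is a steroid enzyme. Star and Tspo are cholesterol-handling proteins, several Hsd17b and Ugt enzymes act mainly on fatty acids, phenols or bilirubin, and Tecrl (Srd5a2l2 in the file) is related to reductases of fatty acid elongation.

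Steroid hormone synthesis starts when cholesterol enters mitochondria, where its side chain is cleaved to give pregnenolone, which dehydrogenases and cytochrome P450 enzymes turn into progesterone, corticosteroids, androgens and oestrogens. Tissues that respond to these hormones also set their local level: they reduce progesterone, interconvert potent and weak oestrogens and glucocorticoids, and attach sulfate or glucuronic acid, which makes a steroid unable to bind its receptor. In mice, pregnancy depends on ovarian progesterone, which falls before birth, and its local breakdown in the uterus and cervix has been linked to the onset of labour.

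RNA of mouse uterus was hybridised to Illumina bead arrays at day 18.5 after mating (3 arrays), shortly before birth, and at day 15.5 (3 arrays). The labels name no strain, treatment or genetic change for either day. The tissue is labelled uterus, and the series description calls it myometrium, the muscle layer. The description counts 18 replicates a day, but how many animals went onto each array is not stated. The p-values therefore rest on the scatter among the arrays at hand, part of which may be technical. All 10 uterine smooth muscle markers were measured, among them Myh11, Acta2 and Des, with summed signals of 111329 to 119580 at day 18.5 and 108130 to 121422 at day 15.5. None of the 10 rose and 4 fell. The log2 change was -2.38 for Myocd, a coactivator of smooth muscle genes (adjusted p = 4.89e-06), and -0.52, -0.50 and -0.38 for Smtn, Synpo2 and Lmod1. The arrays lay on 1 chip, the days in separate stretches of it, so that day and chip position cannot be told apart. Of all probes, 43.6% to 46.5% were detected on an array, and 50 to 54 of the 120 steroid enzyme probes.

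Markers of other cell types differed between the days. Of all 14081 genes tested, 12.6% were higher and 13.4% lower at day 18.5 at an adjusted p under 0.05. Trophoblast markers summed to 7380 to 24759 at day 18.5 and 790 to 859 at day 15.5, and 7 of 9 measured (of 16) rose, while Prl3d1, Tpbpa, Gcm1 and Ascl2 were among the 7 with no kept probe. Epithelial markers summed to 39543 to 47598 at day 18.5 and 14118 to 21661 at day 15.5, with 9 of 11 measured (of 14) higher and none lower. Decidual markers summed to 31266 to 35315 at day 18.5 and 16463 to 19153 at day 15.5, with 4 of 9 measured (of 12) higher and 5 lower. Gja1, a gap junction gene that muscle also expresses, made up most of that sum; without it the other 8 summed to 3995 to 4145 at day 18.5 and 7111 to 8730 at day 15.5. NK cell markers summed to 570 to 779 at day 18.5 and 5294 to 6646 at day 15.5, and all 4 measured (of 8) fell. Mast cell markers summed to 6253 to 6573 at day 18.5 and 3345 to 4733 at day 15.5, with 4 of 6 higher and none lower. Endothelial markers summed to 4711 to 5465 at day 18.5 and 7589 to 9231 at day 15.5, with 3 of 5 measured (of 6) lower. Fibroblast and stromal markers summed to 55287 to 62714 at day 18.5 and 68110 to 72803 at day 15.5, with 3 of 8 lower. Macrophage markers (7 measured, 2 lower) and red cell markers (5 measured, 1 higher and 2 lower) were listed too. Yolk sac and fetal liver, ovarian, adrenal cortex and hepatocyte markers are given further below. The part of these cell types in the changes below was not tested. In bulk tissue, fewer cells of a type and less RNA per cell cannot be told apart.

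Steroid enzyme genes moved in both directions between the days. Of the 33 measured, 7 were higher and 10 lower at day 18.5 at an adjusted p under 0.05, and 16 did not pass the test. Called genes thus made up 51.5% of those measured, beside 26.1% of all 14081 genes tested, and those higher made up 21.2% beside 12.6%, those lower 30.3% beside 13.4%. The arrays of the days did not overlap for 19 of the 33 (57.6%), beside 43.2% of all genes. Star, Cyp21a1 and Sult5a1, detected on no array of the day on which they were low, were measured only through the other day and so had to differ. Without them 5 genes were higher and 9 lower of 30, or 46.7% beside 24.3% of the genes detected on both days, and 16 did not overlap (53.3% beside 41.7%). Their median log2 change was -0.15, also with the 3 genes detected on no array of a day set at their bound, against 0.02 over all genes. The genes that rose were Hsd17b2, Cyp21a1, Akr1c14, Akr1c12, Star, Akr1c19 and Hsd17b7. Those that fell were Cyp11b1, Cyp11a1, Ugt1a6a, Ugt1a6b, Srd5a1, Sult1d1, Sult5a1, Srd5a3, Hsd3b2 and Ugt1a10.

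**Figure D1:**
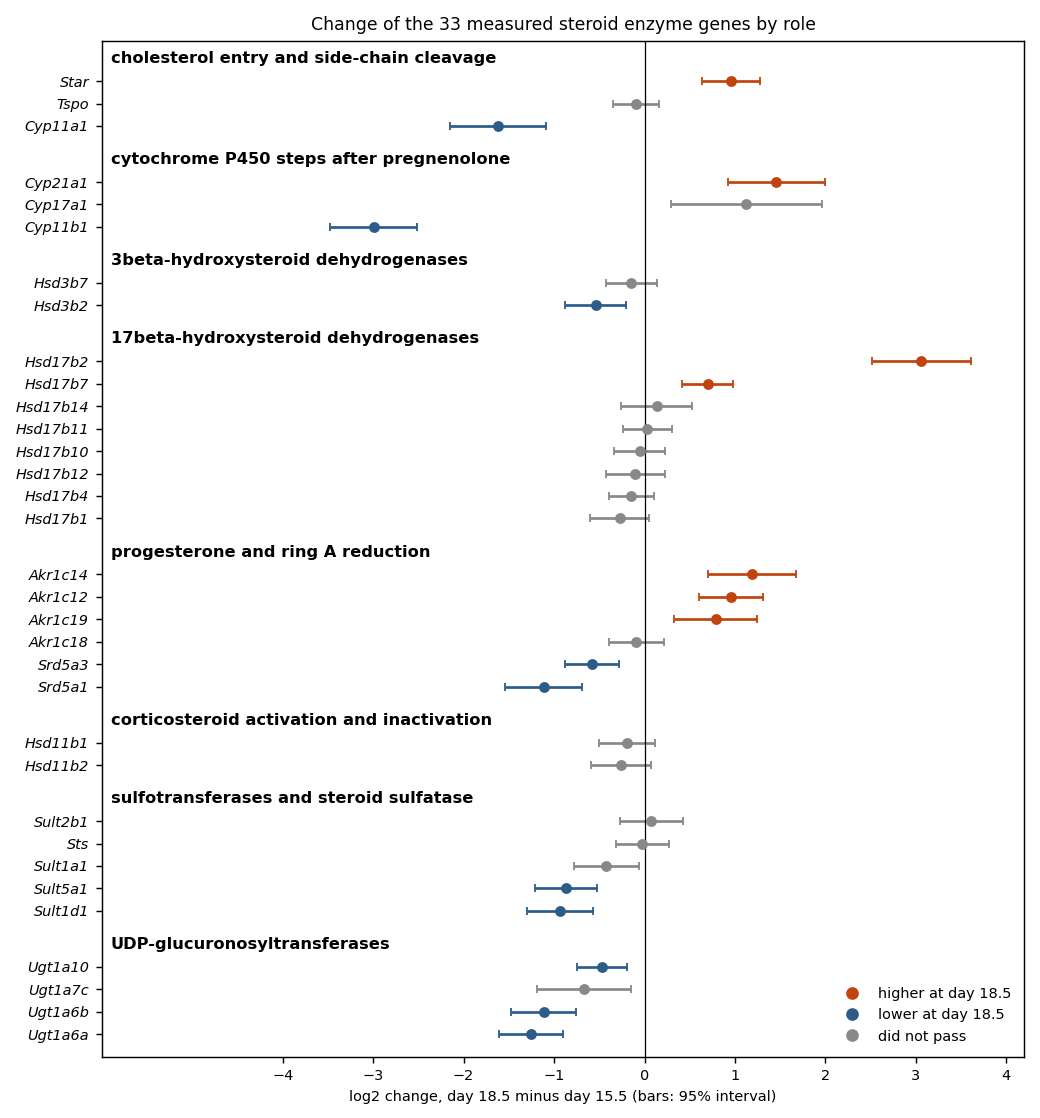
Fitted log2 change, day 18.5 minus day 15.5, of the 33 measured genes ordered by role, with 95% intervals (n = 3 arrays a day); orange genes were higher and blue genes lower at day 18.5, and grey genes did not pass the test. Hsd17b2 lies farthest to the right at 3.06 and Cyp11b1 farthest to the left at -2.99, and no role group holds called genes only; for Star, Cyp21a1 and Sult5a1, detected on no array of a day, the fitted change is no bound.

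**Figure D2:**
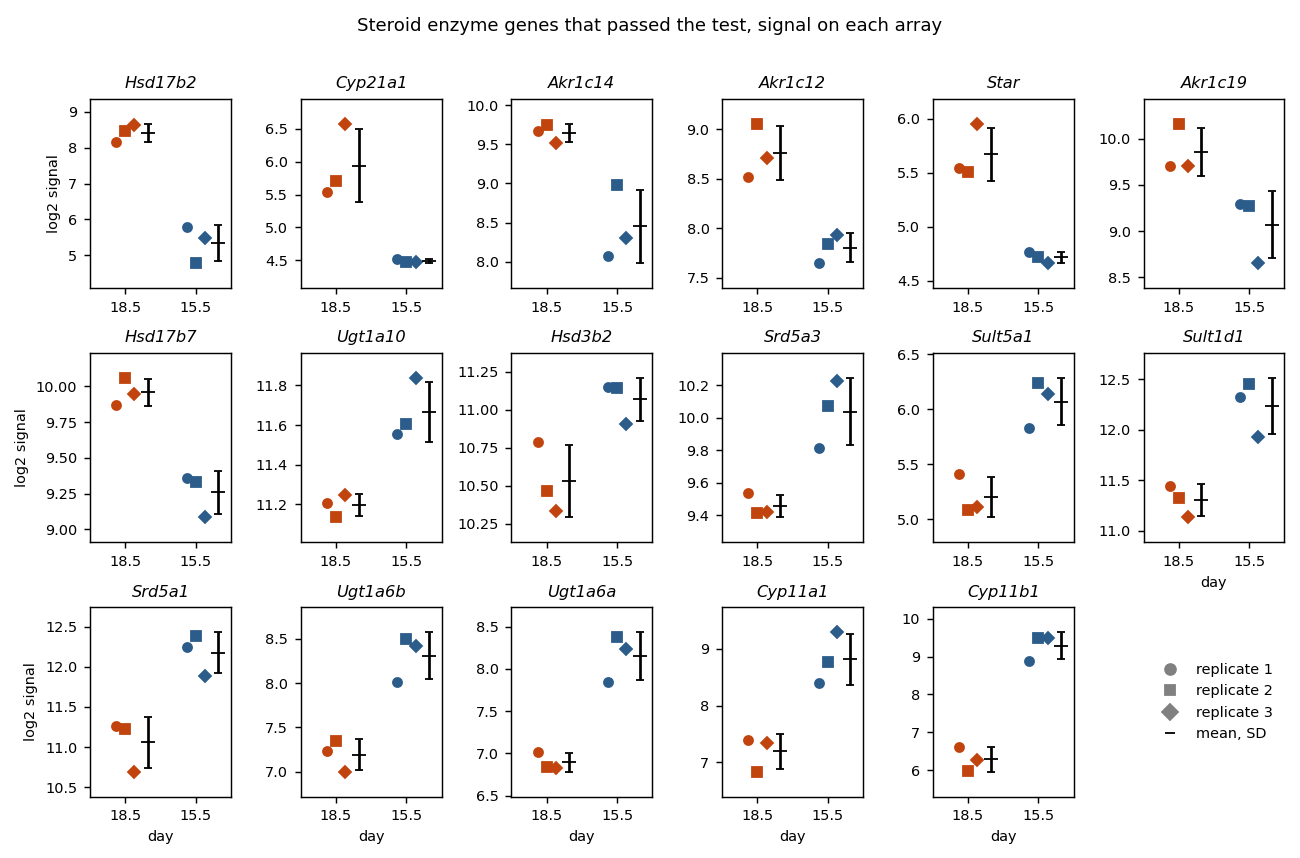
Normalised log2 signal on each array for the 17 genes that passed the test, day 18.5 in orange at the left of each panel and day 15.5 in blue at the right; symbols mark replicates, and the black bars give the mean and SD of 3 arrays. In every panel the arrays of the days do not overlap; scales differ between panels.

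Of 3 genes for cholesterol entry and side-chain cleavage, the start of synthesis, 1 rose, 1 fell and 1 did not pass the test. Star, which carries cholesterol to the inner mitochondrial membrane, had log2 signals of 5.55, 5.51 and 5.95 at day 18.5, against 4.77, 4.72 and 4.66 at day 15.5. It was detected on all 3 arrays of day 18.5 and on none of day 15.5, and so was measured through day 18.5 alone. Taking as its day 15.5 level the lowest signal of a detected probe on each array, the rise was at least 1.16-fold. That bound was not tested, and the adjusted p of 0.00121 belongs to the fitted difference. Cyp11a1, the side-chain cleavage enzyme that makes pregnenolone, had log2 signals of 7.39, 6.84 and 7.35 at day 18.5, against 8.39, 8.77 and 9.28 at day 15.5. Every day 18.5 array lay below every day 15.5 array, a fall by 1.62 on the log2 scale (SE 0.23, adjusted p = 0.00103), or 3.08-fold. All 3 kept probes of Cyp11a1 were called lower, with log2 changes of -2.06 to -0.82. The probe at -0.82 was detected on no array of day 18.5. It was kept through day 15.5 alone and so had to be lower. A further probe, not kept, averaged 5.14 at day 18.5 and 4.85 at day 15.5. Tspo, an outer mitochondrial membrane protein that binds cholesterol, had log2 signals of 12.04, 12.09 and 12.01 at day 18.5, against 12.11, 12.06 and 12.24 at day 15.5. Its days overlapped, and the log2 change was -0.09 (95% interval -0.34 to 0.16, adjusted p = 0.578).

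The 3beta-hydroxysteroid dehydrogenases turn pregnenolone into progesterone, and 2 of their 7 genes were measured. Hsd3b2 had log2 signals of 10.79, 10.46 and 10.33 at day 18.5, against 11.15, 11.15 and 10.91 at day 15.5. It was lower on every day 18.5 array, by 0.54 on the log2 scale (SE 0.15, adjusted p = 0.0264). That call was lost without day 18.5 replicate 2 or 3 or day 15.5 replicate 1 or 2, with an adjusted p of at most 0.0858. The other probes listed under Hsd3b2 were detected on no array, with day means of 4.50 to 4.87 on the log2 scale. The family's genes are near-identical copies of one another in part, and the files hold no probe sequence. Which copy the kept Hsd3b2 probe reads was not tested. Hsd3b7, which acts on bile acid precursors, averaged 12.68 ± 0.03 at day 18.5 and 12.82 ± 0.18 at day 15.5 (SD, n = 3 each) and did not pass. Hsd3b1, the family's member known in steroidogenic tissue, and Hsd3b6, known in mouse giant trophoblast cells, had no kept probe.

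Among the cytochrome P450 enzymes after pregnenolone, Cyp11b1 carried the largest fall of all measured steroid enzyme genes. It encodes the 11beta-hydroxylase that completes corticosterone in the adrenal. Its log2 signals were 6.62, 5.97 and 6.27 at day 18.5, against 8.87, 9.49 and 9.48 at day 15.5, and it was detected on all 6 arrays. The fall was 7.96-fold, -2.99 on the log2 scale (SE 0.21, adjusted p = 2.17e-05). In the authors' deposited table its ratio of day 18.5 over day 15.5 was 0.102. Cyp21a1, the 21-hydroxylase of corticosteroid synthesis, went the other way. It had 5.55, 5.71 and 6.57 at day 18.5, against 4.51, 4.46 and 4.47 at day 15.5, where no array detected it. The rise was at least 1.40-fold, and the adjusted p of 0.00201 belongs to the fitted difference, not to this bound. The authors' deposited table gives ratios of 7.05 for Cyp21a1 and 3.38 for Star, both detected at day 18.5 only.

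Cyp11b1 and Cyp21a1 were the 2 measured of 6 adrenal cortex markers; Nr5a1, Mc2r, Nr0b1 and Cyp11b2 had no kept probe. Of 8 ovarian luteal or granulosa cell markers, Inhba and Insl3 were measured and both rose, whereas Nr5a1, Lhcgr, Fshr, Inha, Foxl2 and Amh had no kept probe. Inhba and Insl3 together summed to 2209 to 2308 at day 18.5 and 552 to 687 at day 15.5. None of the 6 hepatocyte markers was measured. Star and Cyp21a1 were highest on day 18.5 replicate 3, the array on which yolk sac and fetal liver markers summed to 5097, against 1109 and 2625 on replicates 1 and 2 of that day and 1488 to 2096 at day 15.5. Of that list of 10 genes, 5 were measured, Afp and Apoa1 higher and Rbp4 and Amn lower, while Alb, Ttr, Apoa4, Apob and Cubn had no kept probe. Among the day 18.5 arrays, the epithelial, smooth muscle, red cell and NK cell marker sums were also highest on replicate 3. The part of these tissues in the changes of Star and Cyp21a1 was not tested. Without that array the fitted log2 differences were 0.81 for Star and 1.14 for Cyp21a1, against 0.95 and 1.46 with it, but only 2 arrays then detect either gene, fewer than the 3 asked of a measured gene.

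Cyp17a1, the 17alpha-hydroxylase that opens the way to androgens, missed the threshold. It had log2 signals of 8.32, 8.73 and 7.47 at day 18.5, against 7.35, 7.49 and 6.30 at day 15.5. Day 18.5 replicate 3 lay among the day 15.5 arrays, and the log2 difference was 1.12 (SE 0.37, 95% interval 0.29 to 1.96, adjusted p = 0.0526). Without day 18.5 replicate 3 it passed, at 1.48 and an adjusted p of 0.0193. The authors' deposited table gives a ratio of 2.37 with a false discovery rate of 0.0542. Cyp19a1, the aromatase that makes oestrogens, and Cyp11b2, the aldosterone synthase, had no kept probe.

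Sult1e1, the oestrogen sulfotransferase, varied in a like way within day 18.5. Its probe was detected on 2 of the 6 arrays, fewer than the 3 asked for, and it is not among the 33 genes. Log2 signals were 6.47, 6.71 and 5.22 at day 18.5, against 4.50, 4.45 and 4.63 at day 15.5, where no array detected it. In a fit with no detection filter it was higher (adjusted p = 0.0331), and its bound, which was not tested, was at least 1.60-fold. The authors' deposited table gives a ratio of 7.42 with a false discovery rate printed as 0. Cyp17a1 and Sult1e1 were both highest on replicate 2 of day 18.5 and lowest on replicate 3. Trophoblast markers summed to 15643, 24759 and 7380 on replicates 1, 2 and 3 of day 18.5, against 859, 790 and 794 on those of day 15.5. The fibroblast and stromal, macrophage, mast cell and ovarian marker sums had the same order over the arrays of day 18.5. At day 15.5 Cyp17a1 was also lowest on replicate 3, whereas the trophoblast sum was lowest on replicate 2. Trophoblast makes androgens through Cyp17a1 and expresses Sult1e1 in the mouse, as background. Its part in these 2 genes' signals was not tested.

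**Figure D3:**
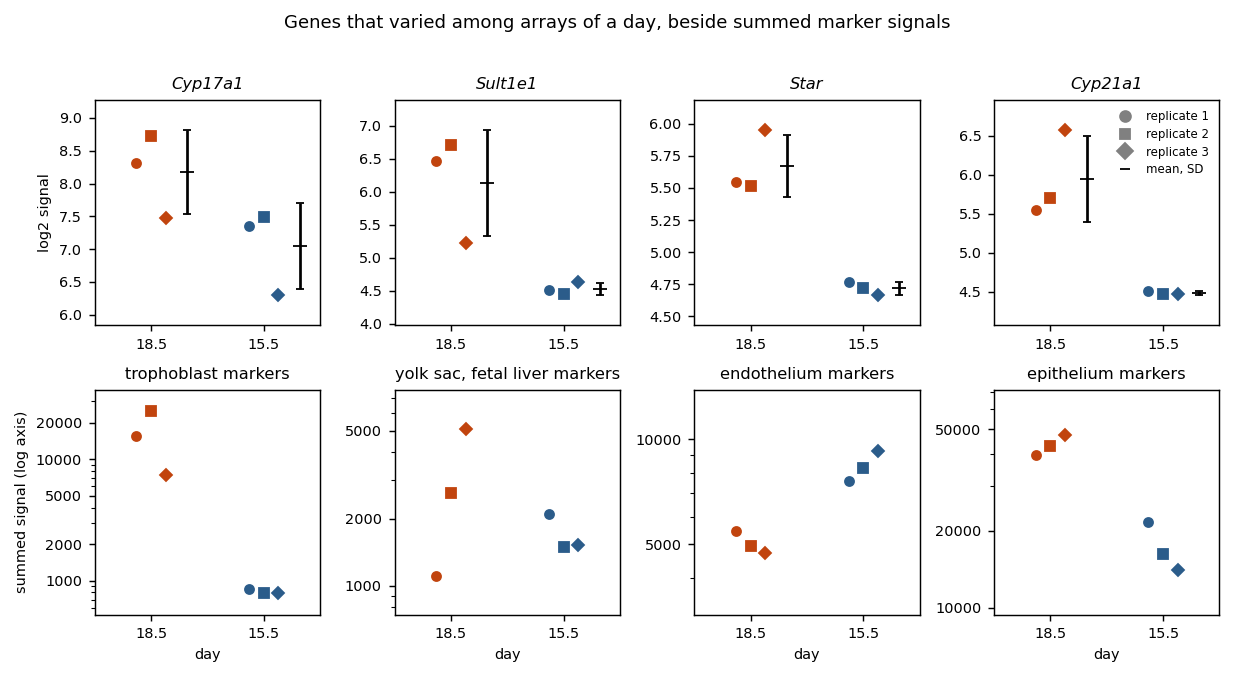
Upper row, normalised log2 signal of Cyp17a1, Sult1e1, Star and Cyp21a1 on each array, with the mean and SD of 3 arrays; lower row, summed linear signal of 4 marker lists on each array (log axis), with day 18.5 in orange at the left and day 15.5 in blue at the right. Cyp17a1, Sult1e1 and the trophoblast sum share their order over the 3 arrays of day 18.5, as do marker sums not shown. Star, Cyp21a1 and the yolk sac and epithelial sums are highest on replicate 3 of that day. The endothelial sum is lower on every day 18.5 array.

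Hsd17b2 showed the largest rise of the measured steroid enzyme genes. Its enzyme oxidises oestradiol to the weaker oestrone and is known from the glandular epithelium of human endometrium. Log2 signals were 8.15, 8.46 and 8.63 at day 18.5, against 5.78, 4.79 and 5.48 at day 15.5, where 1 of 3 arrays detected it. The groups lay far apart, with a log2 change of 3.06 (SE 0.24, adjusted p = 3.64e-05), or 8.34-fold. Its size depended on the processing, from 2.06 with no background correction to 3.63 with the authors' normalised values, and the authors' deposited table gives a ratio of 13.8. The summed epithelial markers given above were also higher on every day 18.5 array; their part in the Hsd17b2 change was not tested.

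Hsd17b7, which reduces oestrone to oestradiol and also serves cholesterol synthesis, rose as well. It had 9.87, 10.06 and 9.95 at day 18.5, against 9.36, 9.33 and 9.08 at day 15.5, a change of 0.70 (SE 0.12, adjusted p = 0.00316). The other 6 measured of 10 Hsd17b genes did not pass, with log2 changes of -0.28 to 0.13. Hsd17b1, which makes oestradiol in ovary and, in humans, placenta, averaged 5.87 ± 0.24 at day 18.5 and 6.14 ± 0.11 at day 15.5, with an interval for the change of -0.61 to 0.05. Hsd17b4, an enzyme of peroxisomal fatty acid oxidation, averaged 11.56 ± 0.05 at day 18.5 and 11.71 ± 0.08 at day 15.5. Hsd17b10 and Hsd17b12, best known for mitochondrial isoleucine breakdown and for fatty acid elongation, had log2 changes of -0.05 and -0.10. Hsd17b11 and Hsd17b14 stood at 0.03 and 0.13. Hsd17b3, the testicular testosterone-forming enzyme, had no kept probe.

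The 12 genes named Akr1c or Srd5a were grouped by name as reductases of progesterone and of other steroids at ring A. The group thus also holds Tecrl and Srd5a3. Of the 12 genes, 6 were measured, and they split by family. Of the 4 measured Akr1c genes, 3 rose, and both measured Srd5a genes fell. The Akr1c genes, encoding aldo-keto reductases, lie side by side on chromosome 13, and their promoter windows are shown because 3 neighbours rose and another, Akr1c18, did not pass. Each window runs from 250 bases before to 50 bases after an annotated transcript start (RefSeq, GRCm38.p6) and is written along the gene's strand. They are chr13:4059341-4059640 (plus strand) for Akr1c14, chr13:4279350-4279649 (minus strand) for Akr1c12, chr13:4233490-4233789 (plus strand) for Akr1c19 and chr13:4150597-4150896 (minus strand) for Akr1c18. Capitals mark CATTAG or AGGTCA.
Akr1c14: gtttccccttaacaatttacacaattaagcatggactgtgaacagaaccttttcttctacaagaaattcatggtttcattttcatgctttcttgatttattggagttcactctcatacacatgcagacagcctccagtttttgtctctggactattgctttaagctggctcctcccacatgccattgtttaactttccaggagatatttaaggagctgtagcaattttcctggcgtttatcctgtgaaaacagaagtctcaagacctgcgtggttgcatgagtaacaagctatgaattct
Akr1c12: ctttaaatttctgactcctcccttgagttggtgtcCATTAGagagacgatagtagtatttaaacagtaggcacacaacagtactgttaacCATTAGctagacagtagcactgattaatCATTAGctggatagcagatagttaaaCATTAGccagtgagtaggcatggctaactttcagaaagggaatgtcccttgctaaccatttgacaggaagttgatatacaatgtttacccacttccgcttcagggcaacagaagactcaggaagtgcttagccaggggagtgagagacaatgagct
Akr1c19: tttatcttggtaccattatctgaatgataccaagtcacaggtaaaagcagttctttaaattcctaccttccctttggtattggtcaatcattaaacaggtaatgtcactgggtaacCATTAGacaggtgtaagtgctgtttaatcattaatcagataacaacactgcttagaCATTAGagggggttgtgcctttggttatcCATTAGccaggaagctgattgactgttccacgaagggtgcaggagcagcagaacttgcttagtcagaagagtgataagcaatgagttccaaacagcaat
Akr1c18: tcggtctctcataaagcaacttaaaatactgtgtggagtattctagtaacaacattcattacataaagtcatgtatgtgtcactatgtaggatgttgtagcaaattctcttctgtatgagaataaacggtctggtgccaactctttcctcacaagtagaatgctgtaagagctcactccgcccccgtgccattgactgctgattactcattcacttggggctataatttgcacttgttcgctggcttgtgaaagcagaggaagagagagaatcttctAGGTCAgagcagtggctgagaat
The letters CATTAG occur 4 times in the Akr1c12 window and 3 times in that of Akr1c19, all on the gene's strand, and not in those of Akr1c14 and Akr1c18. They were noticed after the sequences were read and then counted on both strands in all 32851 windows of the RefSeq table: 7.36% hold them at least once and 9 windows (0.0274%) at least 3 times. Those 9 include Akr1c13, a neighbour with no kept probe. AGGTCA, the half-site bound by many nuclear receptors, occurs in the Akr1c18 window, 27 bases after its start. It is found in 3 of 23 windows of the measured genes and in 16.26% of all windows. TGTTCT, the half-site of the progesterone and glucocorticoid receptors, occurs in none of these 4 windows, in 7 of the 23 and in 18.97% of all. TATAAA also occurs in none of the 4, in 1 of the 23 and in 13.62% of all. Of the 33 measured genes, 21 had a window. Aligned end to end, the 4 windows were 47.2% to 56.7% identical, and Akr1c12 and Akr1c19 were the most alike.

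Akr1c14, the 3alpha-hydroxysteroid dehydrogenase of the mouse, had log2 signals of 9.66, 9.75 and 9.52 at day 18.5, against 8.08, 8.98 and 8.30 at day 15.5. It rose by 1.19 on the log2 scale (SE 0.21, adjusted p = 0.00335), and its other kept probe rose by 1.85. Akr1c12 had 8.51, 9.05 and 8.71 at day 18.5, against 7.65, 7.84 and 7.93 at day 15.5. That was a rise by 0.96 (SE 0.16, adjusted p = 0.00216) with no overlap between the days. Akr1c19 had 9.70, 10.16 and 9.70 at day 18.5, against 9.29, 9.27 and 8.65 at day 15.5. The rise by 0.79 (SE 0.20, adjusted p = 0.0191) was lost without day 18.5 replicate 2, its highest array, with an adjusted p of 0.0658. Akr1c18, the 20alpha-hydroxysteroid dehydrogenase that inactivates progesterone, had 14.15, 14.31 and 14.06 at day 18.5, against 14.39, 14.34 and 14.05 at day 15.5. These values overlapped, and the log2 change was -0.09 (95% interval -0.39 to 0.21, adjusted p = 0.668). Akr1c6, Akr1c13, Akr1c20 and Akr1c21 had no kept probe. Related Akr1c genes can share probe targets, which could not be checked without probe sequences.

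Srd5a1, the 5alpha-reductase needed for normal cervical ripening and birth in mice, fell. It had log2 signals of 11.26, 11.22 and 10.69 at day 18.5, against 12.24, 12.39 and 11.89 at day 15.5, a fall of 2.17-fold (log2 change -1.11, SE 0.19, adjusted p = 0.00243). A dimmer kept probe, which the file lists as 4930435F02Rik and RefSeq assigns to Srd5a1, was also called lower at -0.74 (SE 0.16, adjusted p over probes = 0.00867). Srd5a3, which serves dolichol synthesis for protein glycosylation, had 9.54, 9.41 and 9.42 at day 18.5, against 9.82, 10.07 and 10.22 at day 15.5. It fell by 0.58 on the log2 scale (SE 0.13, adjusted p = 0.0117), and its 3 kept probes were all called lower within -0.59 to -0.58. Srd5a2, the 5alpha-reductase of the prostate, had no kept probe.

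Both corticosteroid enzymes were measured and neither passed the test. Hsd11b1, which regenerates active glucocorticoid, had log2 signals of 14.47, 14.42 and 14.49 at day 18.5, against 14.65, 14.87 and 14.43 at day 15.5. Its days overlapped, with a log2 change of -0.19 (95% interval -0.50 to 0.12, adjusted p = 0.342) and 3 kept probes between -0.22 and -0.18. Hsd11b2, which inactivates glucocorticoid, had 10.78, 10.68 and 11.04 at day 18.5, against 10.88, 11.13 and 11.27 at day 15.5. Replicate 3 of day 18.5 lay within the range of day 15.5, and the change was -0.26 (95% interval -0.59 to 0.07, adjusted p = 0.233).

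Of 12 sulfotransferase and sulfatase genes, 5 were measured, and 2 fell and none rose. Sult1d1, which in mice sulfates catecholamines and other small phenols, had log2 signals of 11.45, 11.33 and 11.13 at day 18.5, against 12.32, 12.45 and 11.92 at day 15.5. It fell by 0.93 on the log2 scale (SE 0.16, adjusted p = 0.00272). Sult5a1 had 5.41, 5.08 and 5.11 at day 18.5, where no array detected it, against 5.83, 6.24 and 6.14 at day 15.5, where all did. It was at least 1.55-fold lower at day 18.5, and the adjusted p of 0.00268 belongs to the fitted difference, not to this bound. Without Sult5a1, measured through day 15.5 alone, 1 of 4 fell. Sult1a1, a phenol sulfotransferase that also takes oestrogens, averaged 9.69 ± 0.27 at day 18.5 and 10.11 ± 0.16 at day 15.5, a log2 change of -0.42 that did not pass (adjusted p = 0.0813). Sult2b1, which sulfates cholesterol and pregnenolone, averaged 5.72 ± 0.23 at day 18.5 and 5.65 ± 0.18 at day 15.5. Sts, the sulfatase that frees steroids from their sulfates, had 6.07, 5.99 and 6.11 at day 18.5, against 6.26, 6.11 and 5.88 at day 15.5. Its days overlapped, with an interval for the log2 change of -0.32 to 0.27. Sult2a1, which sulfates dehydroepiandrosterone, had no kept probe. Sult1e1, Sult1c2 and Sult4a1 had none either, and were higher at day 18.5 in the fit with no detection filter.

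Most of the 21 genes named Ugt, though not all, encode UDP-glucuronosyltransferases, which attach glucuronic acid to phenols, bilirubin and oestrogens. Only Ugt1a genes were measured, 4 of the 21. Of these, 3 fell and none rose. Ugt1a6a had log2 signals of 7.02, 6.84 and 6.83 at day 18.5, against 7.84, 8.38 and 8.23 at day 15.5, a fall of 2.39-fold (log2 change -1.25, SE 0.16, adjusted p = 0.000454). Its second kept probe, detected on all 6 arrays, was not called, at -0.23 (adjusted p over probes = 0.25). Ugt1a6b had 7.23, 7.35 and 7.0 at day 18.5, against 8.01, 8.50 and 8.42 at day 15.5, a log2 change of -1.12 (SE 0.16, adjusted p = 0.000985). Ugt1a10 had 11.21, 11.13 and 11.25 at day 18.5, against 11.55, 11.60 and 11.84 at day 15.5. Its fall by 0.47 on the log2 scale (SE 0.12, adjusted p = 0.0199) was shared by all 3 of its kept probes. It was lost without day 18.5 replicate 1 or 2 or day 15.5 replicate 3, with an adjusted p of at most 0.0796. Ugt1a7c averaged 7.88 ± 0.21 at day 18.5 and 8.55 ± 0.49 at day 15.5 and did not pass (adjusted p = 0.0598).

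All 8 kept Ugt1a probes had a lower mean at day 18.5, and 6 of them were called lower. The called probe of Ugt1a7c (-0.49) was detected on all 3 arrays of day 15.5 and on none of day 18.5. It was kept through day 15.5 alone and so had to be lower. The 8 probes are not independent. The Ugt1a genes overlap on chromosome 1 and join different opening exons to shared final exons. A probe in the shared part thus reads all of these genes. None of the 13 Ugt2 probes, the family of the liver enzymes for androgens and bile acids, and none of the 3 Ugt3 probes was kept. No Ugt8a probe was kept either. Over all steroid enzyme genes, 13 had several kept probes. In 5 every probe was called, in 2 only some, in 6 none, and in 0 were probes called in opposite directions. These counts include the probes of Cyp11a1 and Ugt1a7c that were detected at day 15.5 only.

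**Figure D4:**
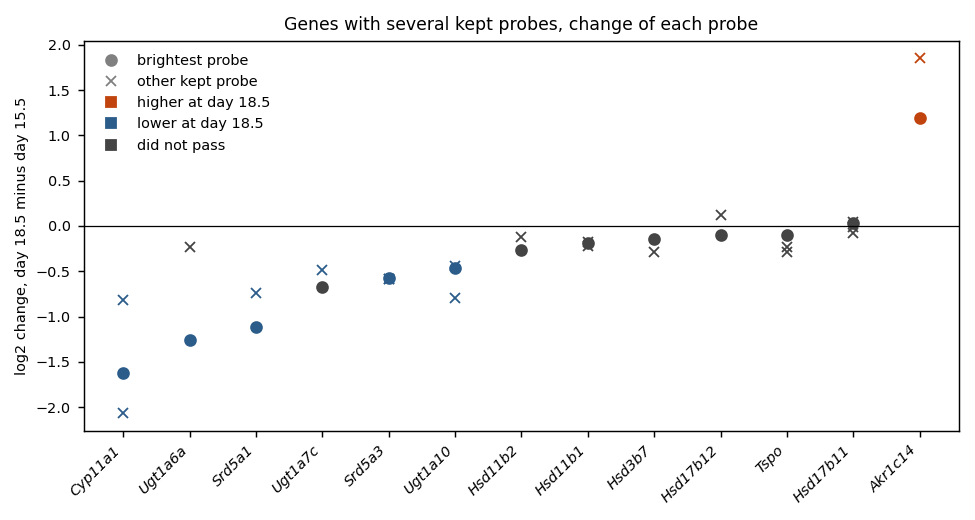
Log2 change, day 18.5 minus day 15.5, of every kept probe of the 13 genes with several; circles mark the brightest probe, which stands for the gene, crosses the others, and colours the probe-level call. Akr1c14 has both probes above 0, and Cyp11a1, Srd5a1, Srd5a3 and Ugt1a10 have all probes below 0 and called. The Cyp11a1 probe at -0.82 and the Ugt1a7c probe at -0.49 were detected on no array of day 18.5 and so had to be lower.

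The authors' deposited table gave the same direction for 17 of the 17 called genes. Its false discovery rate was under 0.05 for 15 of them, the exceptions being Hsd3b2 at 0.0813 and Ugt1a10 at 0.0542, and for 0 of the 16 genes that did not pass here, taking each gene's brightest probe. Another kept probe of Ugt1a7c, detected at day 15.5 only, stood at 0.0237 there. Of genes with no kept probe, Sult1e1 stood at 0, Hsd3b4 at 0.0007 with a ratio of 0.368, Sult1c2 at 0.0048 with 2.19 and Sult4a1 at 0.0237 with 1.63. The same 4 passed in the fit with no detection filter, which called 9 of all 72 genes higher and 11 lower, beside 12% of 28922 genes in either direction. Under 18 other ways to process the arrays or to leave 1 out, 14 of the 17 called genes kept their call wherever they had a value; genes with no kept probe are not counted in these. Hsd3b2, Ugt1a10 and Akr1c19 lost it under some, and Cyp17a1, Ugt1a7c and Sult1a1 passed under some.

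**Figure D5:**
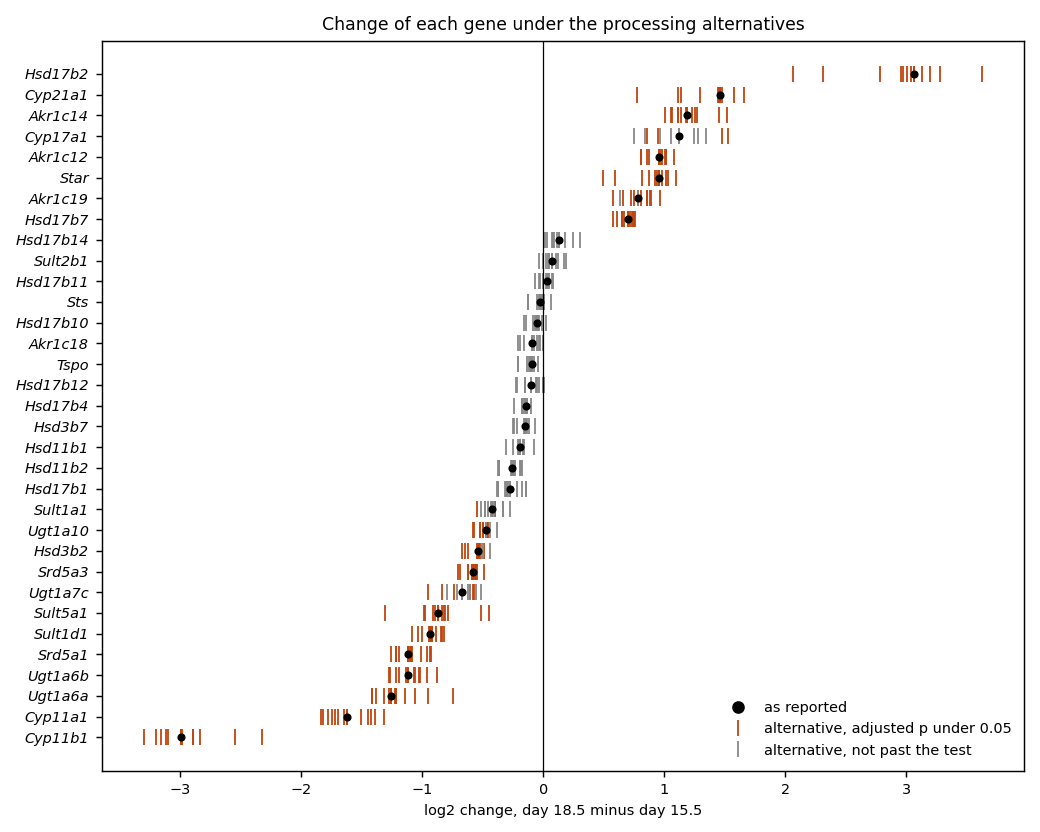
Log2 change, day 18.5 minus day 15.5, of each of the 33 measured genes as reported (black point) and under up to 18 alternatives (ticks, orange where the adjusted p was under 0.05 and grey where it was not). No called gene crosses 0, and Hsd17b2 spreads most, from 2.06 to 3.63.

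The counts of this list and of those below stand beside 26.1% of all 14081 genes called, 12.6% higher and 13.4% lower. Of 16 genes for the uptake, storage and transport of cholesterol, 13 were measured, with 1 higher and 3 lower. Lipe, the hormone-sensitive lipase that frees stored cholesterol, was not detected at day 15.5, and its rise was at least 2.43-fold. The adjusted p of 0.000296 belongs to its fitted difference, not to this bound. Stard3, a cholesterol transporter of endosomes, fell by 0.47 on the log2 scale (SE 0.13, adjusted p = 0.028). Scarb1, the receptor for high-density lipoprotein, was also called lower.

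Among 7 genes of electron supply, 6 were measured and 1 rose. Por, the reductase that feeds microsomal P450 enzymes, rose by 0.46 (SE 0.13, adjusted p = 0.0263). Fdxr, which feeds the mitochondrial ones, had a log2 change of -0.30 (adjusted p = 0.146), and its partner Fdx1 had no kept probe. H6pd, which supplies the cofactor of Hsd11b1, had a log2 change of -0.38 (adjusted p = 0.0884).

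Of 14 regulators of steroidogenic genes, 5 were measured. Cebpb, a transcription factor of luteal and decidual cells, rose by 0.59 (SE 0.12, adjusted p = 0.00575), and Stat5a, which carries prolactin signals, fell by 1.22 (SE 0.14, adjusted p = 0.000266). Nr5a1 and Nr5a2, the nuclear receptors that switch on steroidogenic genes, had no kept probe.

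Of 19 further enzymes known to act on steroids or related lipids, 16 were measured, with 5 higher and 6 lower. Cyp2s1, a P450 enzyme of epithelia, fell by 2.01 (SE 0.16, adjusted p = 3.6e-05). Akr1b7, an aldose reductase-like protein of steroidogenic tissue, fell by 1.49 (SE 0.14, adjusted p = 0.000108). Dhrs9, a dehydrogenase of retinoids and 3alpha-hydroxysteroids, rose by 1.63 (SE 0.15, adjusted p = 6.98e-05).

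Of 19 genes for sulfate and glucuronate donors and for removal and export of conjugates, 15 were measured, with 2 higher and 3 lower. Abcc4, an exporter of steroid sulfates and prostaglandins, fell by 1.94 (SE 0.17, adjusted p = 5.71e-05). Ugp2, which makes UDP-glucose for glucuronate, fell by 0.91 (SE 0.15, adjusted p = 0.00185). Slco4a1, an organic anion transporter, rose by 0.92 (SE 0.19, adjusted p = 0.00617). Papss1 and Papss2, which make the sulfate donor, had log2 changes of -0.35 (adjusted p = 0.0966) and -0.22 (adjusted p = 0.228).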

How the data were processed

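Illumina bead arrays were compared between mouse uterus at day 18.5 and day 15.5, 3 arrays each. Per the file headers, the deposited unnormalized table lists 45281 probes with their mean bead intensity and detection p-value on every array; array medians ran from 75.8 to 105. The authors' deposited comparison table adds normalised intensities, their ratio between the days and its q-value, per the file headers; the method was not given in the sources used. Ratios there stand on other lines than their probe IDs. Each was matched to the probe of that symbol whose geometric means give it (relative tolerance 1e-05), and all 43887 found 1 probe.

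Intensities were processed with neqc (limma 3.58.1, R 4.3.3, offset 16) to the log2 scale. Background was inferred from the detection p-values, which the authors deposited. A probe was kept where 3 or more arrays gave a detection p under 0.05, which left 20701 probes, and the brightest one stood for its gene, 14081 in all. The test was lmFit with eBayes over all genes, two-sided, called at an adjusted p (Benjamini-Hochberg) under 0.05. The fit was tested on simulated data. Genes detected on no array of a day got a bound, with the lowest detected log2 signal of an array at 5.34 to 5.52. Names follow RefSeq (GRCm38.p6): 119 of the 120 steroid enzyme probes matched, and Sts kept its name in the file. The number of arrays limits the precision.

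Members and lists were chosen with earlier results of these data known. Every measured member may be named; of other pathway lists, up to 3 called genes with the smallest adjusted p and Por, Fdx1, Fdxr, H6pd, Papss1 and Papss2. The values of 1 gene so chosen are not reported here. Alternatives covered background, normalization, detection filter, choice of probe, names, variance model, array weights, replicate block and each array left out. Counts without genes detected on 1 day only, and the decidual sum without Gja1, were chosen after seeing the data.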

Additional observations from a re-analysis of the deposited data

How the results depend on the processing

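Under 18 alternatives, 5 to 8 of the 33 measured steroid enzyme genes were higher and 8 to 12 lower at day 18.5, against 7 and 10 as reported; leaving out each array gave 6 to 8 higher and 8 to 10 lower. Of the 17 called genes, 14 kept their direction and call under every alternative that gave a value. Akr1c19 lost its call with no detection filter and without day 18.5 replicate 2. Hsd3b2 lost it under 4 of the arrays left out and Ugt1a10 under 3. Cyp17a1 passed under 7 alternatives (adjusted p 0.00107 to 0.151 over all 18), Ugt1a7c under 8 and Sult1a1 under 3. Requiring detection p under 0.01 on all 6 arrays gave no value for Cyp21a1, Hsd17b1, Hsd17b14, Hsd17b2, Star, Sts, Sult2b1 and Sult5a1. With no detection filter, 4 of the 39 genes without a kept probe also passed (Sult1e1, Sult1c2 and Sult4a1 higher, Hsd3b4 lower). Of the called genes, Cyp21a1, Star, Sult5a1 and Ugt1a6a had fitted log2 changes that moved by over 1.5 times under some alternative. Over all alternatives with a value, Cyp21a1 ranged from 0.78 to 1.66 and Star from 0.50 to 1.10. Sult5a1 ranged from -1.31 to -0.44 and Ugt1a6a from -1.41 to -0.74.

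No called gene changed sign. Of the 16 uncalled genes, 6 did under some alternative, with log2 changes near 0, and the cause was not tested. Akr1c18 stood at 0.0010 with array weights. Hsd17b10 ranged from -0.14 to 0.025 with an array left out, above 0 without day 15.5 replicate 1. Hsd17b11 stood at -0.069 with median scaling, -0.0028 with the mean of its probes, and from -0.031 to 0.083 with an array left out, below 0 without replicate 3 of either day. Hsd17b12 stood at 0.0076 with the mean of its probes. Sts ranged from -0.12 to 0.063 with an array left out, above 0 without day 18.5 replicate 2 or day 15.5 replicate 1. Sult2b1 ranged from -0.037 to 0.19 with an array left out, below 0 without day 18.5 replicate 1 or day 15.5 replicate 2. Median scaling put the median log2 change of all genes at -0.10, against 0.02 as reported, and 12 steroid enzyme genes lower.

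With the replicate number as a block, 8 genes were higher (the 7 and Cyp17a1, adjusted p = 0.00107) and 10 lower. The labels do not say that the numbers pair the arrays. Deviations of same-numbered arrays correlated at -0.16, 0.15 and -0.06 across genes, and those of differently numbered arrays at -0.17 to 0.23. With 3 arrays a day this check cannot settle whether they are paired. Dim signals limit Star, Cyp21a1 and Sult5a1, whose sizes are known only as bounds.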
